A study of Mus musculus with 18 samples.

Results

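The voltage-gated sodium channel subunits described here are 8 genes, taken by their symbols from the 55335 genes of the deposited matrices: the alpha subunits Scn1a, Scn2a, Scn3a, Scn8a and Scn9a and the beta subunits Scn2b, Scn3b and Scn4b. Nuclei of 9 mouse forebrains, collected on embryonic day 14 (E14), were sequenced for their RNA, 3 embryos each of the wild type (WT), heterozygous (Het) and homozygous mutant (KO) genotype of the Myt1l S710fsX line, and each embryo has 2 libraries, labelled run 1 and run 2, giving 18 libraries. Myt1l encodes a zinc finger transcription factor of neurons. The mutation is germline and constitutive, on a C57BL/6 background, and all embryos came from Het by Het matings, so the WT controls carried no mutant allele and no group was treated. Genotypes were taken from the sample titles. A second label for genotype gives WT for every library of run 1, against those titles, and is the same as the title in run 2. The animal, a separate embryo, was the replicate, with its runs summed.

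Voltage-gated sodium channels open when a membrane is depolarised and carry the inward current that starts and propagates the action potential. One alpha subunit forms the voltage sensor and the pore, and beta subunits, single-pass membrane proteins with an extracellular immunoglobulin domain, tune gating, surface level and cell adhesion. In neurons the channels gather at the axon initial segment, where ankyrin-G holds them. Scn3a is known as the alpha subunit of the embryonic brain, Scn2a as that of young axons and excitatory neurons, Scn8a as that of mature initial segments and nodes of Ranvier, Scn1a as the main channel of postnatal inhibitory interneurons and a gene of childhood epilepsy, and Scn9a as a channel of peripheral sensory neurons.

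After filtering, 194659 nuclei remained, 14801 to 26069 per animal, with 42.85 M to 74.13 M UMIs per animal (unique molecular identifiers, each standing for 1 captured RNA molecule). Clustering, from which the 8 genes were withheld, gave 29 clusters. They included 60077 nuclei of excitatory neurons, 51346 of inhibitory neurons, 30480 of radial glia, 17042 of excitatory intermediate progenitors, 6821 of inhibitory progenitors, 2014 Cajal-Retzius neurons and 680 microglia and macrophages, a cluster that also held genes of mural cells. All these names rest on marker lists and mean "like" that type (for example excitatory neuron-like). The labelled tissue, forebrain, had its markers in these classes. A further 26128 nuclei in 4 clusters stayed unnamed. Of the neuron clusters, 15 had at least 20 nuclei in every animal. Barcodes shared between libraries numbered 311 between the runs of an animal and 3429 between animals. A sum over a class cannot tell fewer nuclei that hold a transcript from less of it per nucleus. Myt1l RNA was not used to check the labels, because a frameshift can leave a transcript countable. Its level in excitatory neurons was 1920, 2175 and 2071 CPM (counts-per-million of the summed class in an animal) in WT, 2180, 2417 and 2355 CPM in Het and 2487, 2763 and 2549 CPM in KO. The genotypes, as titled, did not overlap in these levels. The KO change was 0.36 on the log2 scale (SE 0.08) with an edgeR adjusted p of 0.0435. In inhibitory neurons the KO change in Myt1l was 0.29 (SE 0.07, edgeR adjusted p = 0.425).

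The genes lie on 3 chromosomes (GENCODE vM21, GRCm38). Scn3a (chr2:65457118-65567627, minus strand), Scn2a (chr2:65620771-65767447, plus strand), Scn1a (chr2:66270778-66440840, minus strand) and Scn9a (chr2:66480080-66634962, minus strand) share a region of chromosome 2. Scn8a (chr15:100869858-101045938, plus strand) stands alone. Scn3b (chr9:40269217-40291618), Scn2b (chr9:45117782-45130070) and Scn4b (chr9:45138395-45154152), all on the plus strand, lie on chromosome 9, Scn2b next to Scn4b. Over all nuclei Scn3a had 162102 UMIs, Scn8a 98908, Scn1a 55394, Scn2a 46354, Scn3b 24881, Scn9a 19444, Scn2b 2586 and Scn4b 79. The members with more counts have the more precise values, and Scn4b has almost none. The sources used here do not give whether counting used introns or strand, so reads of overlapping genes (Gm13630 in Scn1a, Gm13595 in Scn3a, Gm13629, Gm13627 and Gm23046 in Scn9a, Gm10684 at Scn2b, Gm47266 in Scn3b) cannot be told apart from theirs. The largest count among those overlapping genes was 1225, for Gm13629.

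The promoters of the members differ widely in base composition, and 5 of them are shown because Myt1l is the perturbed gene and its zinc fingers are known to bind a core of AAGTT, which reads as AACTT on the opposite strand. RefSeq (GRCm38.p6) gave 8 windows of 250 bases upstream of a start site for 6 of the genes. Capitals mark a match on either strand, and no other motif was searched. The inner Scn2a window and both Scn8a windows lie inside the gene as GENCODE annotates it, and most of the Scn4b window does too. Each is written 5′ to 3′ on the strand of its gene.
Scn2a, outer start (chr2:65620519-65620768, plus strand): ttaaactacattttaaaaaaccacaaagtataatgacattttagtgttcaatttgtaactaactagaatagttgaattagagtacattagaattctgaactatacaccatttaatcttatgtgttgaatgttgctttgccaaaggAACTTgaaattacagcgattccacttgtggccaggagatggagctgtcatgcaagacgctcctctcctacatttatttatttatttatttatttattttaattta
Scn2a, inner start (chr2:65668436-65668685, plus strand): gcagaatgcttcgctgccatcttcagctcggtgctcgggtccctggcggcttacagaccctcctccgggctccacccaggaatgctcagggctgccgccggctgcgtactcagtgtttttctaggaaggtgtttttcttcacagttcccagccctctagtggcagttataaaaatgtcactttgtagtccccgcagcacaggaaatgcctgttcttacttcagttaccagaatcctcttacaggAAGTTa
Scn2b (chr9:45117626-45117875, plus strand): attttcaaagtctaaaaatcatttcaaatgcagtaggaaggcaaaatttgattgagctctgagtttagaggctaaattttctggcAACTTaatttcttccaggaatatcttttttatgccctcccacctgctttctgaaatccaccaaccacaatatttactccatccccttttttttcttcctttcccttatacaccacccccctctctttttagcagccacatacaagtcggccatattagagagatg
Scn1a (chr2:66440838-66441087, minus strand): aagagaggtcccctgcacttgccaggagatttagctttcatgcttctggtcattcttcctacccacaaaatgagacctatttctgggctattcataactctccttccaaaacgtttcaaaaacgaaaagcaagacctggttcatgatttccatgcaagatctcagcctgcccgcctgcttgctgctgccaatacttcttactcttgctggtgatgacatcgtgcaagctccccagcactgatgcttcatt
Scn8a, outer start (chr15:100870395-100870644, plus strand): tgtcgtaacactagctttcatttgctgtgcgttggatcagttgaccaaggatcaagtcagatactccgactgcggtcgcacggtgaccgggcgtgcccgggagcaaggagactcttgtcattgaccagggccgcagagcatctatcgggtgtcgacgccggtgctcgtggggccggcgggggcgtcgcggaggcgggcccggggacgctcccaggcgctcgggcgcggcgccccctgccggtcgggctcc

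The motif was present in 3 of the 8 windows, those of both Scn2a starts and of Scn2b, 1 match in each. Among all 32851 promoter windows of this length 35.3% held it, so its presence here is a description and no sign of binding. The outer Scn2a window had 29.6% G or C bases and 2 CpG sites, against a median of 52.4% and 6 CpG sites over all windows. The outer Scn8a window stood at the other end with 68.0% and 30 CpG sites, and that of Scn4b had 66.0% and 23. The Scn2b window had 38.4% and 1 CpG site, and that of Scn1a 46.8% and 4.

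All 7 members that could be tested were higher in neurons than in the progenitors of their lineage. In the excitatory lineage the log2 difference, excitatory neurons minus excitatory intermediate progenitors, was 3.35 for Scn2a (SE 0.07, 10.2-fold), 3.00 for Scn3b, 2.50 for Scn1a, 1.99 for Scn2b, 1.99 for Scn9a, 1.92 for Scn3a and 0.86 for Scn8a (SE 0.03, 1.82-fold). The 7 edgeR adjusted p-values, from a fit with the animal as a block, were between 1.95e-20 for Scn2a and 4.26e-11 for Scn2b. Of all genes, 31.5% were called higher in these neurons. Scn2b did not pass the filter on low counts within the intermediate progenitors. It entered through the neurons, so its direction was close to fixed in advance. The median of the 7 differences was 1.99, beside -0.03 over all genes.

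In the inhibitory lineage, 7 of 7 members were likewise higher in neurons, and Scn9a headed the list. The log2 difference, inhibitory neurons minus inhibitory progenitors, was 4.36 for Scn9a (SE 0.09, 20.6-fold), 3.97 for Scn2a, 3.16 for Scn3a, 2.71 for Scn3b, 2.65 for Scn1a, 2.14 for Scn2b and 0.45 for Scn8a (SE 0.04). The background was 34.7% of all genes called higher, and the median was 2.71 beside 0.01 over all genes. Scn9a and Scn2b did not pass the filter on low counts within the inhibitory progenitors. Both entered through the neurons, so their direction was close to fixed in advance. Their folds are taken against a level under that filter. The progenitor class is 1 cluster that was named from its leading genes (Dlx1 and Dlx2 beside the mitotic genes Aspm and Pif1), while the share and mean fold of markers named inhibitory neurons.

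Scn8a differed least between progenitors and neurons in both lineages. Its level was 75.4 ± 5.2 CPM (SD, n = 9 animals) in radial glia, the stem cells of the forebrain, 142 ± 8.2 CPM in excitatory intermediate progenitors, 177 ± 15 CPM in inhibitory progenitors, 219 ± 7.7 CPM in excitatory neurons and 220 ± 5.6 CPM in inhibitory neurons. The ranges of radial glia (67.3 to 84.2 CPM), excitatory intermediate progenitors (124 to 152 CPM) and excitatory neurons (203 to 229 CPM) did not overlap. By contrast Scn2a was 9.76 ± 2.2 CPM in radial glia, 11.9 ± 3.2 CPM in excitatory intermediate progenitors and 7.54 ± 2.7 CPM in inhibitory progenitors, near the 11.8 ± 14 CPM of the microglia and macrophage cluster, a class not known to use this channel, though 28 UMIs are all it held. The folds of Scn2a over progenitors are therefore taken against a level that may be background. Scn9a had 2.87 ± 0.71 CPM in radial glia, and the 6 UMIs in the microglia and macrophage cluster are too few to set beside it. Scn2b had 4.64 ± 0.59 CPM in excitatory and 7.65 ± 0.57 CPM in inhibitory neurons, both above its 1.37 ± 0.33 and 1.99 ± 1.2 CPM in the respective progenitors. In the microglia and macrophage cluster 18 UMIs of Scn2b gave 9.62 ± 4.5 CPM (0 to 15.1 CPM), too few counts to place it above or below neurons.

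**Figure D1:**
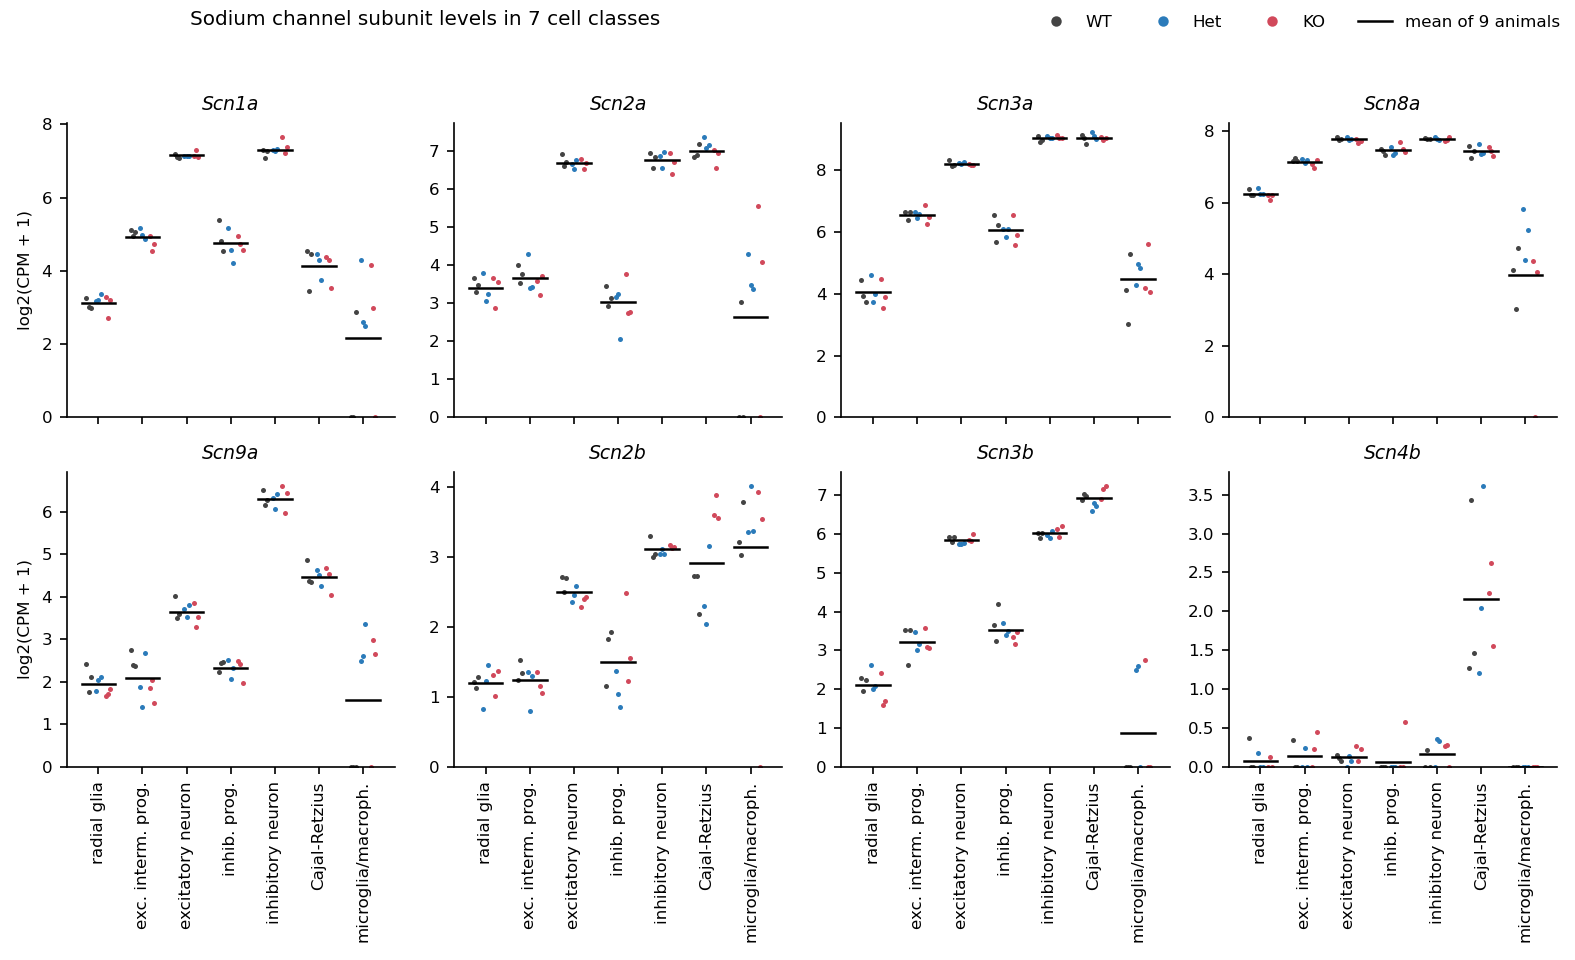
Level of each subunit in 7 cell classes as log2(CPM + 1), 1 point per animal colored by genotype, with the mean of the 9 log2 values as a bar. Scn8a was already 75.4 CPM in radial glia, and Scn4b was above 1 CPM in Cajal-Retzius neurons alone. Scn2a lay near the microglia level in all 3 progenitor classes, though that level rests on few UMIs.

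Compared per kilobase of gene body, the alpha subunit with the highest level was Scn3a. It had 2.68 CPM per kb in excitatory and 4.81 CPM per kb in inhibitory neurons, while Scn8a had 1.24 and 1.25, Scn1a 0.83 and 0.93, Scn2a 0.69 and 0.73, and Scn9a 0.08 and 0.51 CPM per kb. Among beta subunits Scn3b had 2.52 and 2.86 CPM per kb and Scn2b 0.38 and 0.62. Scn4b was at 0.01 CPM per kb in both. These per-length levels depend on whether introns were counted. A UMI stands for 1 molecule whatever the length of its gene, so they do not rank numbers of molecules. In CPM alone, among the 15 neuron clusters tested, Scn3b, at most 122 CPM, lay below Scn8a, at least 175 CPM.

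Excitatory and inhibitory neurons, compared within animals, differed in 3 of the 7 members tested, each lower in excitatory neurons. Scn9a was 6.55-fold lower (log2 difference, excitatory minus inhibitory, -2.71, SE 0.04, edgeR adjusted p = 6.35e-18). Its level in inhibitory neurons was 90.4, 70.3 and 76.7 CPM in WT, 79.3, 65.5 and 85.1 CPM in Het and 96.4, 62.0 and 85.8 CPM in KO, against 8.75 to 15.2 CPM over the 9 animals in excitatory neurons. Every animal stood apart between the classes. Scn3a differed by -0.79 (SE 0.02, 1.72-fold, edgeR adjusted p = 7.03e-15), with 480 to 566 CPM in inhibitory and 284 to 323 CPM in excitatory neurons. Scn2b differed by -0.66 (SE 0.07, 1.58-fold, edgeR adjusted p = 2.39e-07). Of all genes 22.5% were called lower in excitatory neurons, and the median of the 7 members was -0.12 beside 0.00 for all genes.

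The remaining 4 members did not reach the threshold of an adjusted p under 0.05 and a log2 difference beyond 0.2. Scn1a had -0.10 (95% interval -0.20 to -0.01), Scn2a -0.01 (-0.08 to 0.06), Scn3b -0.12 (-0.18 to -0.06) and Scn8a 0.04 (0.00 to 0.09). At E14, then, the class means of Scn1a and Scn2a, which are textbook genes of inhibitory and excitatory neurons, lay close together. The levels within each class covered a far wider range.

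Scn1a ranged 14.3-fold over the 15 neuron clusters. Its highest mean was 240 ± 15 CPM (SD, n = 9 animals) in cluster 16, excitatory neurons led by Tfap2d and Tafa1, followed by 221 ± 30 CPM in medial ganglionic eminence interneurons (cluster 0), 220 ± 24 CPM in upper-layer or migrating excitatory neurons (cluster 15) and 216 ± 30 CPM in cluster 4, inhibitory neurons led by Gbx1 and Adarb2. These 4 overlapped in their ranges. At the bottom stood deep layer excitatory neurons (cluster 26) with 16.8 ± 4.7 CPM and Cajal-Retzius neurons (cluster 27), the first-born cells of the cortical surface, with 17.2 ± 4.8 CPM. Only the step above those 2 clusters, from the 56.1 ± 12 CPM of medial ganglionic eminence cluster 1, left a gap between neighbours in the order, and the other 13 steps overlapped.

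Scn2a followed another order over the 15 neuron clusters, a 12.5-fold range. Septal neurons (cluster 22) with 223 ± 18 CPM stood at the top of these and medial ganglionic eminence cluster 1 with 17.8 ± 5.8 CPM at the bottom. The septal range (199 to 246 CPM) lay above that of the next cluster, cluster 4 (135 to 181 CPM), and the other 13 steps overlapped. Deep layer excitatory neurons had 141 ± 15 CPM of Scn2a and upper-layer or migrating cluster 15 had 27.7 ± 3.6 CPM. Between these excitatory clusters the genes ran in opposite directions, a pair picked after the values were seen and so given with no test. Within animals Scn1a was 13.4-fold lower in the deep layer cluster 26 than in cluster 15, in 9 of 9 animals, and Scn2a was 5.09-fold higher, again in 9 of 9. Scn3b was 3.96-fold higher in the deep layer cluster, Scn3a 1.41-fold lower, and Scn8a 1.14-fold higher on average (8 of 9 animals). The second upper-layer or migrating cluster, 17, showed the same for Scn1a, 9.75-fold lower in cluster 26, but little for Scn2a, 1.28-fold higher. Against excitatory cluster 16, Scn1a was 14.7-fold lower in cluster 26, while Scn2a was nearly equal, 1.03-fold higher (7 of 9 animals). Median UMIs per nucleus, relative to the median of the library, were 1.43 in cluster 26, 0.87 in cluster 15 and 1.075 in cluster 17, and the part of this depth in the levels was not tested.

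**Figure D2:**
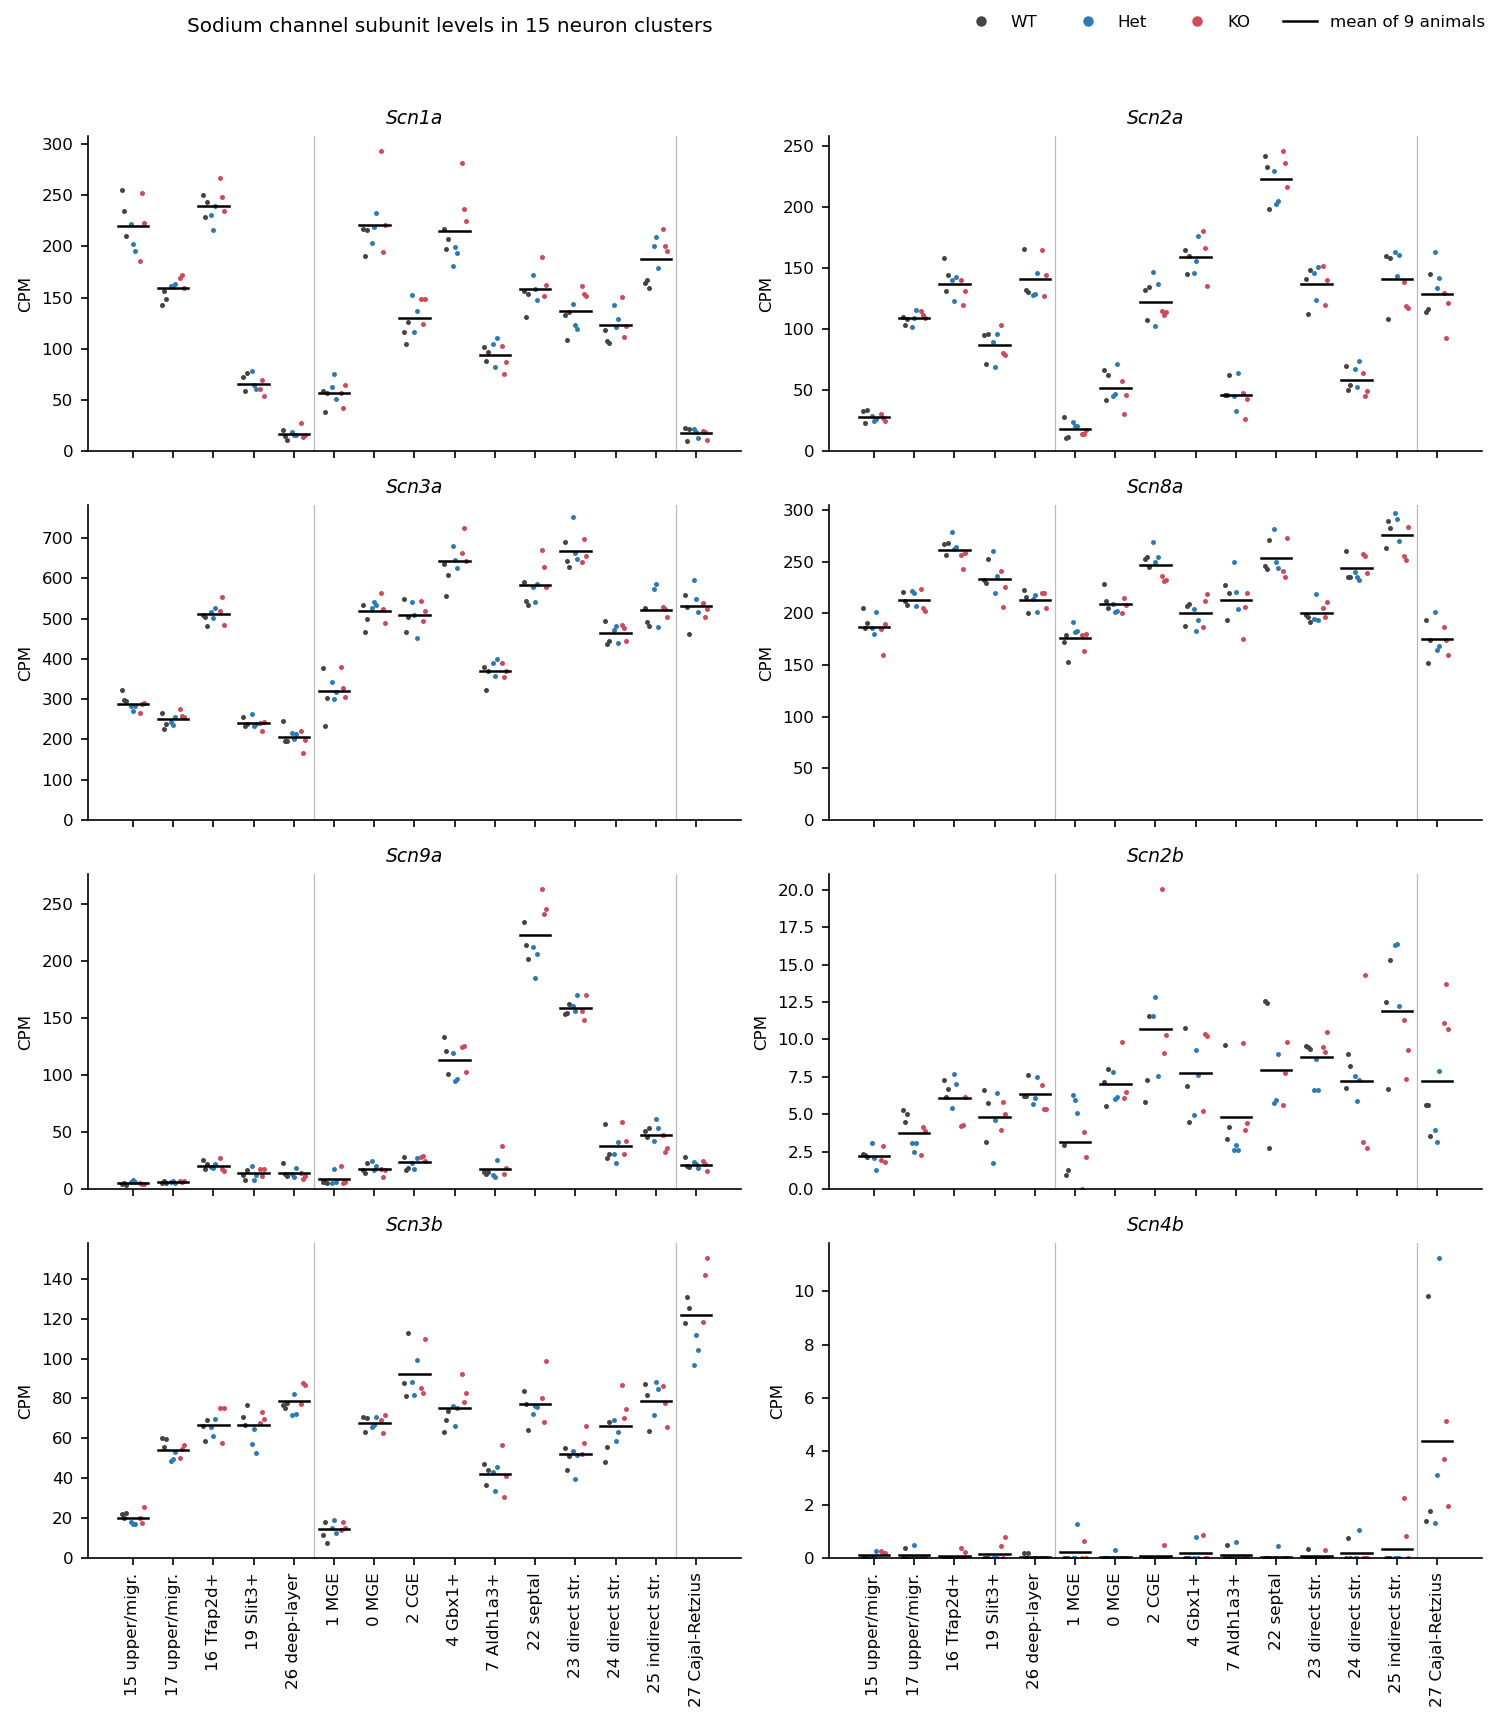
CPM of each subunit in the 15 neuron clusters, 5 excitatory, 9 inhibitory and the Cajal-Retzius cluster, separated by grey lines, with 1 point per animal colored by genotype and the mean of 9 animals as a bar. Scn1a was lowest in clusters 26 and 27 and Scn2a in clusters 1 and 15, while Scn8a ranged only 1.58-fold.

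Scn3a, the embryonic alpha subunit, ranged 3.26-fold. Direct-pathway striatal neurons (cluster 23) had 669 ± 38 CPM and deep layer excitatory neurons 205 ± 22 CPM. Only the step from direct-pathway striatal cluster 24 (437 to 494 CPM) to cluster 7, led by Aldh1a3 and Tshz1 (324 to 399 CPM), left a gap, which divided 9 clusters from 6. All excitatory clusters but cluster 16, with 511 ± 22 CPM, lay on the lower side. Scn8a was the evenest member, 276 ± 17 CPM in indirect-pathway striatal neurons (cluster 25) and 175 ± 16 CPM in Cajal-Retzius neurons, and all 14 of its steps overlapped.

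Scn9a had the widest range of the well-counted members, 43.0-fold. Septal neurons had 223 ± 25 CPM, direct-pathway striatal cluster 23 had 159 ± 7.5 CPM and cluster 4 had 113 ± 14 CPM. Among the 15 neuron clusters, the ranges of these 3 were apart from each other and from the rest. The next cluster, indirect-pathway striatal neurons, had 47.1 ± 9.2 CPM, and the lowest, cluster 15, had 5.18 ± 1.2 CPM. Direct- and indirect-pathway neurons are the main output cells of the striatum. Within animals, Scn9a was 3.43-fold lower in indirect-pathway cluster 25 than in direct-pathway cluster 23 and Scn1a 1.38-fold higher, each in 9 of 9 animals. The second direct-pathway cluster, 24, had 37.9 ± 13 CPM of Scn9a, a range (22.7 to 59.0 CPM) that overlapped the indirect-pathway cluster and lay below cluster 23. The Scn9a difference thus belongs to cluster 23 and not to the direct-pathway name. Cluster 24 has that name from Isl1, Ebf1, Zfp503 and Rxrg, without Drd1 or Tac1. Against medial ganglionic eminence cluster 0, septal neurons had 13.0-fold more Scn9a and 4.44-fold more Scn2a, in 9 of 9 animals, and 1.39-fold less Scn1a. These pairs were also chosen after the values were seen.

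Clusters 0 and 1 of medial ganglionic eminence interneurons, born in the ventral forebrain and bound for the cortex and striatum, were another pair compared after the values were seen. A further cluster of this name (cluster 20, 887 nuclei) had as few as 5 nuclei in an animal and was left out. Cluster 0, whose detected markers included Sst and Satb1, had 3.99-fold more Scn1a, 2.95-fold more Scn2a, 1.63-fold more Scn3a and 4.80-fold more Scn3b than cluster 1, in 9 of 9 animals each. Cluster 1 was led by Lhx8, Lhx6 and Nkx2-1, a factor of young cells of this eminence. Its median UMIs were 0.66 of the library median, against 0.89 in cluster 0, and this difference in depth moved with the levels. Caudal ganglionic eminence interneurons (cluster 2) had 130 ± 17 CPM of Scn1a and 122 ± 16 CPM of Scn2a.

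Of the beta subunits, Scn3b was highest, among the 15 neuron clusters, in Cajal-Retzius neurons at 122 ± 17 CPM. Its range there (96.7 to 151 CPM) overlapped that of caudal ganglionic eminence interneurons (81.4 to 113 CPM). It was lowest in clusters 15 (19.98 ± 2.9 CPM) and 1 (14.6 ± 3.6 CPM), whose ranges lay apart from all others. Scn2b ranged from 2.18 ± 0.53 CPM in cluster 15 to 11.9 ± 3.7 CPM in indirect-pathway striatal neurons, with every neighbouring pair overlapping. Scn4b, known from adult striatal and fast-firing neurons, was close to undetected. It had 79 UMIs in all nuclei, of which 30 (37.97%) lay in the 2014 Cajal-Retzius nuclei. Those 30 UMIs were 1, 7 and 1 in WT, 1, 2 and 10 in Het and 3, 3 and 2 in KO, so each of the 9 animals had at least 1, but 17 of them came from WT 2 and Het 3. In the Cajal-Retzius cluster this made 4.38 ± 3.7 CPM, and no other neuron cluster had a mean of 1 CPM. Striatal clusters 23, 24 and 25 had 2 Scn4b UMIs each. Scn4b passed the filter on low counts in no edgeR test and entered genotype comparisons only with DESeq2 or without that filter, where no member was called.

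Loss of Myt1l left the members with no called change in any class. With edgeR, 0 of 38 pairs of gene and class passed in KO against WT, 4 had an unadjusted p under 0.05, and over all genes and 7 classes 0.256% of pairs were called and 6121 of 94244 had an unadjusted p under 0.05. DESeq2 called 0 of 55 pairs, with 1 at an unadjusted p under 0.05, beside 0.195% of all pairs called and 3621 of 239506 at an unadjusted p under 0.05. In Het against WT 0 of 38 pairs passed, none had an unadjusted p under 0.05, and the background was 0% as well, with 2589 of 94244 pairs at an unadjusted p under 0.05. DESeq2 gave 0 of 55 for Het, with none at an unadjusted p under 0.05, beside 0 and 1098 of 239506 pairs. Both contrasts share the WT animals.

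In excitatory neurons, where 1.1% of all genes were called in KO, the members' log2 differences ran from -0.29 to 0.08 with a median of -0.04, beside -0.01 over all genes. Scn2a, the canonical excitatory channel, was 120, 94.97 and 104 CPM in WT, 99.3, 90.3 and 108 CPM in Het and 109, 90.8 and 101 CPM in KO. The genotypes overlapped, with a log2 difference of -0.06 in KO (95% interval -0.24 to 0.13). Scn3a had 323, 284 and 286 CPM in WT and 297, 289 and 289 CPM in KO, a difference of -0.003 (-0.13 to 0.12). Scn8a was 229, 217 and 219 CPM in WT and 222, 203 and 214 CPM in KO, a difference of -0.04 (-0.15 to 0.08). These are 95% intervals for each gene, from a fit that does not pair animals by replicate number, so a change outside them is not excluded.

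The nearest to a change in excitatory neurons was Scn2b, the least abundant member tested. It had 5.55, 4.63 and 5.50 CPM in WT, 4.11, 4.498 and 4.99 CPM in Het and 3.88, 4.27 and 4.37 CPM in KO. The KO animals all lay below the WT animals, and the Het animals overlapped both. How many of all genes showed such a separation was not counted. The log2 difference was -0.29 in KO (SE 0.13, 95% interval -0.56 to -0.01, edgeR adjusted p = 0.359) and -0.18 in Het, and neither passed. Scn3b in excitatory neurons had 59.98, 54.7 and 60.2 CPM in WT and 52.7, 52.4 and 53.8 CPM in Het, groups that did not overlap, with a difference of -0.12 (edgeR adjusted p = 0.9999), whereas KO, at 56.4, 55.2 and 63.0 CPM, overlapped WT.

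Scn1a was the member with the largest KO difference in inhibitory neurons. Its level was 156, 135 and 153 CPM in WT, 156, 154 and 159 CPM in Het and 201, 147 and 165 CPM in KO. KO 1 was the highest animal, and KO 2 lay inside the WT range. The log2 difference was 0.24 (SE 0.10, 95% interval 0.03 to 0.45, edgeR adjusted p = 0.768), where 0.00535% of all genes, 1 of 18676, were called. Without KO 1 it was 0.11, and leaving out any 1 animal gave 0.11 to 0.33, none of which passed. The 7 members ran from -0.06 for Scn2a to 0.24, with a median of 0.07 beside -0.01 over all genes, and 6 of 7 were above 0. In Het they ran from -0.03 to 0.10 in inhibitory and from -0.18 to 0.03 in excitatory neurons.

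**Figure D3:**
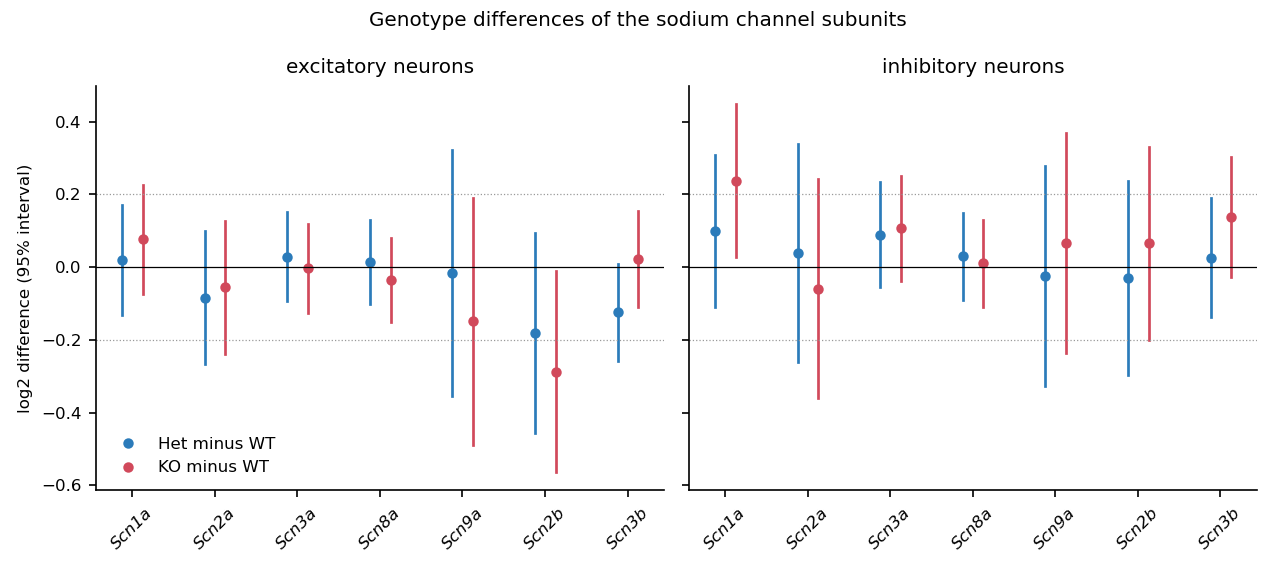
Log2 difference of Het (blue) and KO (red) from WT for the 7 tested subunits in excitatory and inhibitory neurons, with 95% intervals from edgeR and dotted lines at the call limits of 0.2 either way. The fit did not pair animals by replicate number. Most intervals include 0, and those of Scn2b in excitatory (-0.56 to -0.01) and Scn1a in inhibitory neurons (0.03 to 0.45), both KO, do not, though neither passed the adjusted test.

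Whether the KO effect differed between the neuron classes was tested as an interaction. With edgeR 0 of 7 members passed, 3 had an unadjusted p under 0.05 (Scn9a, Scn2b and Scn3a), and 0.0148% of all genes were called, with 1245 of 20266 at an unadjusted p under 0.05. The differences of the effects, excitatory minus inhibitory, ran from -0.34 for Scn2b (95% interval -0.65 to -0.03) to 0.02 for Scn2a, and the lowest adjusted p was 0.725.

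Within the 15 neuron clusters, 0 of 99 pairs of member and cluster passed in KO against WT with edgeR, 11 had an unadjusted p under 0.05, and 0.252% of all pairs were called, with 13262 of 168296 at an unadjusted p under 0.05. The members' 11 of 99 is therefore no result about them. In Het 0 of 99 passed, 5 had an unadjusted p under 0.05, and the background was 0% with 5790 pairs at an unadjusted p under 0.05. The 11 pairs, all with positive differences, were Scn1a in clusters 2, 4, 17, 23 and 25, Scn3a in clusters 4 and 22, Scn3b in clusters 4, 23 and 24 and Scn9a in cluster 22, with adjusted p-values from 0.254 upward. Clusters share their animals, so they are not separate observations of the genotype.

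Replicate numbers paired the KO and WT animals by their correlated deviations, and with the number as a block 1 pair was called, against a background of 1.31% of all pairs. A count of 1 in 99 is no more than that background and no result about the members. With the block, 19 of 99 pairs had an unadjusted edgeR p under 0.05, beside 18564 of 168296 over all genes. The called pair was Scn1a in direct-pathway striatal neurons (cluster 23). Its level was 133, 109 and 136 CPM in WT 1 to 3, 144, 123 and 119 CPM in Het and 162, 153 and 152 CPM in KO. Every KO animal lay above every WT animal, and each KO animal lay above the WT animal of its number. The pair was picked by its call, so these positions add no support. The log2 difference was 0.34 without the block (SE 0.10, 95% interval 0.13 to 0.55, edgeR adjusted p = 0.254) and 0.35 with it (SE 0.08, edgeR adjusted p = 0.0302), about 1.26-fold. Leaving out 1 animal at a time gave 0.25 to 0.39 without the block, the lowest without WT 2, and none of these passed. With run 2 alone it was 0.40 (edgeR adjusted p = 0.1999).

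Scn1a was positive in KO in 8 of the 9 inhibitory clusters, with cluster 7 the exception at -0.12, and in 3 of the 5 excitatory clusters. In the neighbouring indirect-pathway striatal cluster 25 the log2 difference was 0.33 (95% interval 0.10 to 0.57) and in direct-pathway cluster 24 it was 0.22. Scn3a was positive in 9 of 9 inhibitory clusters, from 0.06 to 0.21. Scn2a was positive in 3 of 9, from -0.48 to 0.08. In Het, against the same WT animals, Scn1a was positive in 8 of 9 inhibitory clusters, Scn3a in 9 of 9 and Scn2a in 6 of 9. As the clusters share their animals, these counts of signs are no test of the genotype. In deep layer excitatory neurons, where Scn1a is scarce, the KO difference of 0.28 in Scn1a had an interval of -0.23 to 0.79. A change of this size could therefore not be seen there.

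**Figure D4:**
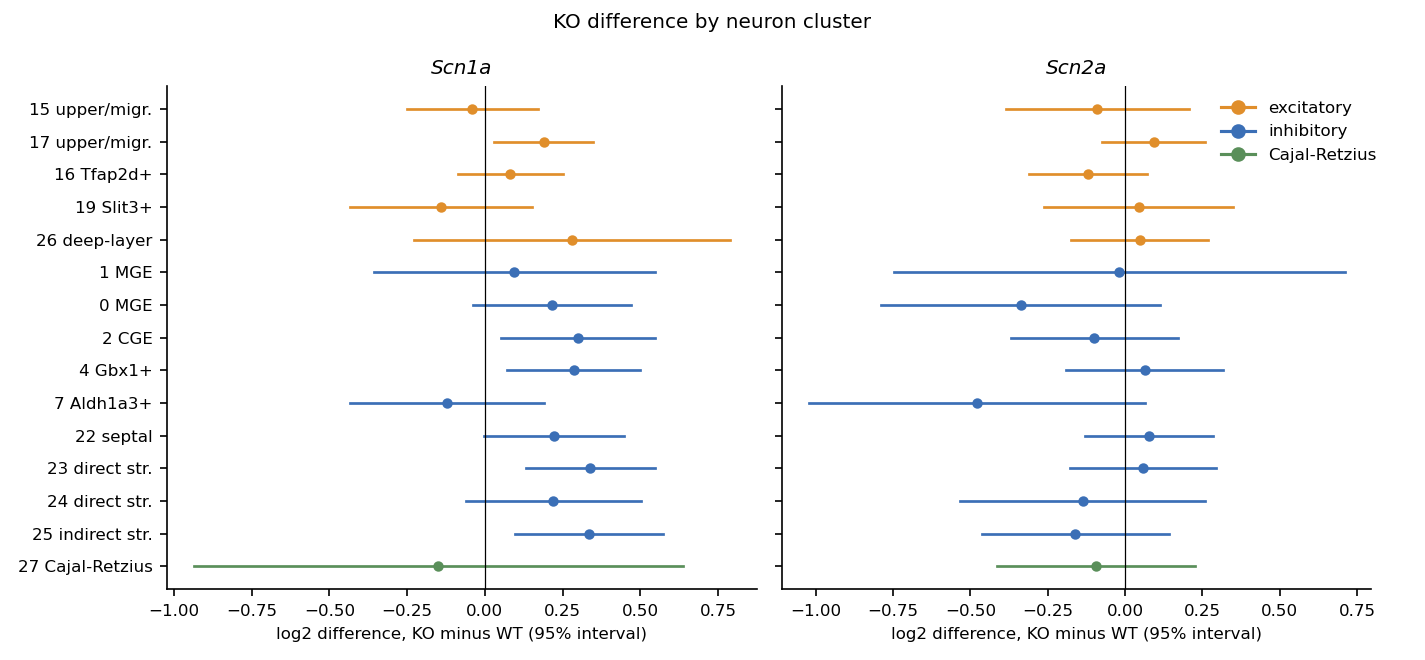
Log2 difference, KO minus WT, of Scn1a and Scn2a in each of the 15 neuron clusters, with 95% intervals from edgeR without the replicate block. Scn1a lay above 0 in 8 of 9 inhibitory clusters, with cluster 23 at 0.34 (0.13 to 0.55), whereas every Scn2a interval includes 0. The clusters share their animals, and in Het, not drawn, Scn1a also lay above 0 in 8 of 9 inhibitory clusters.

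Other genes that build or control the channels were counted in 4 lists. These genes were not withheld from the clustering, and the lists were drawn up with earlier results of these data known. The scaffold of the axon initial segment was the most uniform along the lineages: 10 of 10 genes were higher in excitatory neurons than in intermediate progenitors and 10 of 10 were higher in inhibitory neurons than in inhibitory progenitors, beside 31.5% and 34.7% of all genes. Ank3, which encodes ankyrin-G, differed by 1.98 in the excitatory and 3.38 in the inhibitory lineage, Sptbn4, its beta-IV spectrin partner, by 3.28 and 4.15, and the adhesion gene Cntn1 by 4.37 and 3.95 (log2). Among intracellular partners and turnover genes, 8 of 12 were higher and 2 lower in excitatory neurons, and 5 were higher and 4 lower in inhibitory neurons, the latter 5 of 12 near the 34.7% of all genes. Fgf12 and Fgf14, fibroblast growth factor homologs that bind the channel's tail, were higher in neurons of both lineages (Fgf14 by 3.43 and 2.82).

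Transcription and splicing regulators were mixed, with 5 of 12 higher and 4 lower in excitatory and 8 higher and 3 lower in inhibitory neurons, beside the same 31.5% and 34.7% of all genes called higher and 33.4% and 32.5% called lower. Rest, the repressor first known for silencing sodium channel genes outside neurons, was higher in neurons by 0.73 in the excitatory and 0.50 in the inhibitory lineage. With only the WT animals the latter was 0.18 (edgeR adjusted p = 0.417) and did not pass. Of the other sodium channel genes, Nalcn, the leak channel, was higher in both lineages (1.31 and 1.68). It was also lower in excitatory than in inhibitory neurons (log2 difference -2.76), as Scn9a was.

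In KO excitatory neurons 4 of the 42 list genes tested were called by edgeR, 14 had an unadjusted p under 0.05, and DESeq2 called 7 of 43. Over all genes of this class edgeR called 1.1% (214 of 19383), with 2518 at an unadjusted p under 0.05, and DESeq2, which keeps low genes, called 0.923% (389 of 42164). The lists were drawn up with earlier results of these data known, so these counts are no result about the lists. Fgf14 rose from 1853, 1755 and 1785 CPM in WT to 2435, 2228 and 2274 CPM in KO, with Het, at 1925, 1816 and 1961 CPM, overlapping WT (KO log2 change 0.39, SE 0.06, edgeR adjusted p = 0.00705). Sptbn4 fell, from 58.6, 47.8 and 44.8 CPM to 37.7, 26.7 and 35.2 CPM (-0.58, SE 0.13, edgeR adjusted p = 0.0445), the 1 called gene of the 10 in the scaffold list, whose median was 0.00. Rcor1, a corepressor that works with Rest, rose by 0.36 (edgeR adjusted p = 0.048), and Tpcn2, an endolysosomal channel gene, rose by 0.70 from a mean of 5.87 to 9.32 CPM. The KO and WT animals did not overlap for any of the 4 genes, but the genes were picked by their calls, so this adds no support. Sptbn4 lost its call under 9 of 18 alternatives, Rcor1 under 8, Tpcn2 under 4 and Fgf14 under 1, most of them with a single animal left out.

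Over the 15 neuron clusters 7 of 547 pairs of list gene and cluster were called in KO by edgeR, beside 0.252% of all pairs, and 96 had an unadjusted p under 0.05, beside 13262 of 168296. As the lists were drawn up with earlier results known, the 7 of 547 is no result about them either. All 4 genes also passed in the deep layer cluster 26, which is part of this class. There Fgf14 rose by 0.50, Rcor1 by 0.52 and Tpcn2 by 1.11, and Sptbn4 fell by 0.67 (log2). Rest rose in cluster 26 by 1.04 (SE 0.17, edgeR adjusted p = 0.0181), from 10.1, 14.4 and 17.5 CPM in WT to 24.1, 28.5 and 32.2 CPM in KO, with Het at 19.3, 17.6 and 18.6 CPM. In the upper-layer or migrating cluster 17, Fgf14 rose by 0.60 and Srrm4, a neuronal splicing factor that acts on Rest, by 0.35. Outside Fgf14 in cluster 17, each of these cluster calls was lost under 1 to 7 of 12 alternatives. None of the 547 pairs passed in Het with edgeR, as none did over all genes, and 26 had an unadjusted p under 0.05, beside 5790 of 168296. In inhibitory neurons 0 of 42 list genes passed in KO with edgeR and 0 of 43 with DESeq2, with 7 at an unadjusted p under 0.05 in each. Over all genes edgeR called 0.00535% there, with 1189 of 18676 at an unadjusted p under 0.05, and DESeq2 called 0.0843%, with 716 of 41512.

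The chromosome 2 region that holds Scn3a, Scn2a, Scn1a and Scn9a, with 14 other annotated genes between and inside them, was also described. Of those, 4 could be tested in each lineage, and 4 of 4 were higher in neurons in each, among them Csrnp3, which lies between Scn2a and Galnt3, and Gm13629, which overlaps Scn9a on the other strand. Over all genes 31.5% were called higher in neurons in the excitatory and 34.7% in the inhibitory lineage. Within the excitatory intermediate progenitors only 2 of the 14 passed the filter on low counts, and 2 within the inhibitory progenitors. The other genes tested entered through the neurons, so their direction was close to fixed in advance. The 4 of 4 is therefore no result about the region. Between neuron classes 5 of 8 were lower in excitatory neurons, beside 22.5% of all genes, and none was higher. The 5 were Csrnp3, Gm13617, Gm13619, Galnt3 and Gm13629. Gm13617 and Gm13619 lie inside Csrnp3 on the other strand, and Gm13629 overlaps Scn9a, which was itself lower. Reads of overlapping genes cannot be told apart here, so the 5 are not separate observations.

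The genes whose levels ran most like each member were sought across 27 clusters with enough nuclei, over 10901 genes with at least 20 CPM in some cluster, by Pearson's correlation of log2(CPM + 1). Clusters share libraries and animals and fall into neurons and progenitors, so these values are descriptions without a test. Scn3b ran most like Rusc1 (r = 0.98) and Mapt (0.979), Scn8a like Maneal (0.973), Elavl3 and Iglon5 (0.964 each), and Scn2a like Srsf12 (0.964), Tmem63c (0.962) and Pak6 (0.952). Scn9a was nearest to Fgf9 (0.955), Ablim3 (0.954) and Gipc2 (0.942) and Scn3a to Prmt2 (0.954), Trio (0.948) and Evi5l (0.941). Scn1a had the weakest partners, Pcyt1b and Bend5 (0.88 each) and 9530059O14Rik (0.878). Among the members the closest pair was Scn2a and Scn3b (0.917), while Scn1a and Scn2a had 0.712. Scn2b and Scn4b were under the level set for this search.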

How the data were processed

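Single-nucleus RNA was measured with ScaleBio combinatorial barcoding in 18 libraries of 9 embryos. Per the study's methods, the authors ran ScaleRna against mm10. The deposited matrices were taken here to hold expected counts per gene and nucleus, since 6.70% to 8.71% of entries per library were not whole. Seurat 4.3.0, DESeq2 1.38.3 and Scanpy 1.12.0 are named in the submitters' processing notes. The sources used here do not say whether introns or strand were used.

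From these files, the limits of the study were applied, namely 300 to 3000 genes and 800 to 6000 UMIs a nucleus, a mitochondrial share up to 1% and log(genes)/log(UMIs) from 0.9 upward (200916 of 261143 barcodes), and nuclei among the highest 5% of doublet scores, ranked over all barcodes of a library before these limits, (scanpy 1.11.5, Python 3.11.15) were removed, leaving 194659. Library medians were 1861 to 4120.5 UMIs. Clustering used 3000 variable genes without the 8 members, Myt1l and sex-linked genes, 50 principal components, 20 neighbors and Leiden resolution 1. Clusters were named from fixed marker lists by a rule set after the clusters were seen: a class was named where the share of its markers detected (at least 10 CPM, 1.5-fold) and their mean fold picked the same class, and otherwise from markers among the 10 leading genes, with at least 3 markers. Where the leading genes held more markers of a single other class (over 1), that class was named instead, as for the inhibitory progenitor cluster.

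Counts were summed per animal and class or cluster, rounded, and tested in classes and clusters with at least 20 nuclei in every animal with edgeR 4.0.16 quasi-likelihood tests in R 4.3.3 (TMM, filterByExpr, two-sided, Benjamini-Hochberg over all genes, and over all gene and cluster pairs for clusters). A call needed an adjusted p under 0.05 and a log2 difference beyond 0.2. Class comparisons had the animal as a block. CPM was taken over the summed counts, and intervals are at 95%. For edgeR the SE was the absolute log2 difference divided by the square root of the F statistic, and the intervals were built from it. The model was tested on simulated data. Named were the 8 members, list genes that passed, up to 4 others per list, and the 3 most similar genes. The members and lists were chosen with earlier results of these data known.

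Alternatives were DESeq2 1.42.0, other size factors, no low-count filter, other nucleus limits, no doublet removal, each run alone, only the animals compared, a replicate block and leaving out each animal. Same-numbered animals deviated together (correlations 0.097 to 0.283, against -0.221 to 0.022 for other numbers), and all KO and WT pairs were above 0.1, so the numbers were taken to pair KO with WT; this comes from the data, as the labels do not state it. No columns of other samples were present (0).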

Additional observations from a re-analysis of the deposited data

How the results depend on the processing

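The members' counts of calls stayed within 1.5 times under all settings that could be run except 1: with the replicate block, the count for KO in neuron clusters went from 0 to 1 (Scn1a in cluster 23), and the block, or pairing by number, changed no other member's call. Between classes, Rest, which is no member, lost its calls: excitatory against inhibitory neurons with only the WT animals (0.1998) and run 1 alone (0.0325), and the inhibitory lineage with only the WT animals (0.18). Differences near 0 changed sign. In KO excitatory neurons these were Scn3a without doublet removal (0.00108) and with run 1 alone (0.000826), Scn8a with run 1 alone (0.0219), and Scn3b without upper limits (-0.0199) and with run 1 alone (-0.0847). In KO inhibitory neurons it was Scn8a with run 1 alone (-0.0136). Between excitatory and inhibitory neurons they were Scn1a (0.148), Scn2a (0.0851) and Scn8a (-0.0288) with run 1 alone, and Scn2a with only the WT animals (0.0228). Leaving out 1 animal gave KO differences in excitatory neurons of -0.00702 to 0.138 for Scn1a, -0.123 to 0.021 for Scn2a, -0.0317 to 0.0402 for Scn3a, -0.315 to 0.0115 for Scn9a and -0.0186 to 0.0439 for Scn3b, and in inhibitory neurons of 0.108 to 0.326 for Scn1a, -0.203 to 0.0711 for Scn2a and -0.0704 to 0.224 for Scn9a. The cause was not tested. Calls over all genes in KO classes numbered 241, against 466 with DESeq2, 1251 without the filter, 1490 with the block, 147 with only the 6 animals compared, 2 with run 1 alone and 61 to 355 without 1 animal. In KO neuron clusters they numbered 424, against 770 adjusted within each cluster, 2205 with the block and 117 to 497 without 1 animal. In Het they numbered 0, against 279 without the filter and 13 with the block in classes, and 24 with the block in clusters. With run 1 alone Cajal-Retzius neurons and microglia had too few nuclei for a test. Depth limits Scn4b (79 UMIs) and Scn2b (2586 UMIs).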

Other observations

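The 4 clusters that stayed unnamed also carried the channels. The cluster led by Car10, Ntng1 and Sim1 (cluster 5) had 323 ± 21 CPM (SD, n = 9 animals) of Scn2a, above the 223 ± 18 CPM of septal neurons, the highest of the named neuron clusters, and its range of 287 to 353 CPM did not overlap theirs. It also had 647 CPM of Scn3a, 174 CPM of Scn9a, 142 CPM of Scn1a and 124 CPM of Scn3b. The cluster led by Chat and Lhx8 (cluster 3), genes of cholinergic neurons, had 675 CPM of Scn3a, 171 CPM of Scn9a and 176 CPM of Scn2a. In the cluster led by Sim1, Tll1 and Ebf2 (cluster 6) Scn2a was 221 CPM. The cluster led by Otx2, Lrp2 and Egfr (cluster 8) had 152 CPM of Scn8a but only 24.1 CPM of Scn1a and 35.0 CPM of Scn3a. No genotype was tested in these 4 clusters.

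The 71 nuclei of oligodendrocyte progenitors, dividing glia known to carry sodium currents, had 48 UMIs of Scn8a, 30 of Scn3a, 21 of Scn1a and 6 of Scn2a. Their Scn8a level was 212 ± 95 CPM (SD, n = 9 animals), and with as few as 1 nucleus in an animal no test was made.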
